A study of Mus musculus with 8 samples.

Results

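Mitochondria are remodelled by a small set of proteins whose transcripts are described here in ribosome-bound and whole-tissue RNA of the mouse hypothalamus. The genes are Mff, Dnm1l, Fis1, Mief1, Mief2, Mfn1, Mfn2, Opa1, Oma1 and Yme1l1. They were chosen by symbol from a table of 45706 genes, and all 10 were measured in every library and passed the filter on low counts. The GTPase DRP1, encoded by Dnm1l, is recruited from the cytosol to the outer mitochondrial membrane, where it assembles into rings that divide the organelle. Its receptors there are MFF, the products of Mief1 and Mief2 (MID51 and MID49) and, in a debated role, FIS1. Fusion of outer membranes is carried out by the mitofusins, encoded by Mfn1 and Mfn2, and fusion of inner membranes by OPA1, which the proteases OMA1 and YME1L process. In AgRP neurons, hunger-promoting cells of the arcuate nucleus, mitochondrial shape is known to change with feeding state.

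Translating ribosome affinity purification was used, in which ribosomes that carry GFP-tagged RpL10a are pulled from a homogenate with antibodies to GFP. The beads give the immunoprecipitate (IP), and the homogenate gives the Input. There were 4 IP and 4 Input libraries, and each was a pool of 3 mice of mixed sexes aged 11 to 12 weeks, killed in the random-fed state. Both groups share 1 genotype. It joins floxed Mff on both chromosomes (Mfffl/fl), 1 copy of a Cre (AgRP-IRES-Cretg/wt), and 1 copy of the Cre-dependent tagged ribosomal protein (RpL10a-GFPfl/wt). The Cre at the Agrp locus therefore deletes Mff and switches on the tagged ribosome in the same cells, while Input also holds RNA of cells in which Mff is intact. Libraries of the Mffwt/wt genotype are not analysed here, so an effect of the deletion cannot be told apart from other differences in any value below. The labels do not say that IP and Input of one number came from one pool, and the main tests treat all libraries as independent. Their p-values set the difference between the fractions against the spread between libraries.

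Libraries held 39.9 to 64.8 M estimated counts in IP and 44.1 to 74.6 M in Input (M, mega). Agrp averaged 843 ± 170 CPM in IP and 3.35 ± 0.741 CPM in Input (SD, n = 4 each; CPM, counts per M counts, scaled between libraries by TMM factors). All 7 AgRP neuron markers were higher in IP, with a summed level of 2950 to 4510 CPM against 88.1 to 103 CPM in Input. Markers of other cells were lower but present. Those of astrocytes, 7 of 7 lower, summed to 768 to 1030 CPM in IP and 2540 to 3170 CPM in Input, and those of oligodendrocytes, 7 of 7 lower, to 594 to 872 CPM in IP and 2080 to 2620 CPM in Input. Neurons of other hypothalamic nuclei, with 8 of 8 markers lower, summed to 212 to 307 CPM in IP and 681 to 836 CPM in Input. Of the markers of other arcuate neurons 5 of 7 were lower (79.3 to 109 CPM in IP, 152 to 187 CPM in Input), as were 6 of 7 for microglia (14.2 to 18.3 CPM in IP, 49.4 to 60.7 in Input) and 4 of 4 for oligodendrocyte precursors (24.4 to 38.4 CPM in IP, 105 to 121 in Input). They were lower too for 4 of 5 markers of tanycytes and ependyma (9.87 to 15.8 CPM in IP, 33.3 to 42.1 in Input) and 3 of 6 of vascular cells (12.5 to 30.7 CPM in IP, 36.1 to 43.6 in Input). The part of these cells in the values below was not tested.

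The family did not move as one. Mff, Mfn1 and Opa1 were lower in IP than in Input, Fis1, Mfn2 and Yme1l1 were higher, and Dnm1l, Mief1, Mief2 and Oma1 did not pass the test. Changes with TMM factors were moderate, between 55.2% of the Input level for Mff and 165% for Fis1. With offsets for GC content and transcript length, Yme1l1 rose most, by 1.12 on the log2 scale, and Fis1 by 0.21. With 3 of 10 genes higher and 3 of 10 lower, the counts were close to those of all 17000 genes tested, of which 24.5% were called higher, 20.9% lower and 45.4% in either direction (edgeR's quasi-likelihood test, Benjamini-Hochberg adjusted p under 0.05). Of all calls, 54.1% were in the higher direction, or 43.3% with upper quartile factors. The median log2 fold change was -0.05 over the 10 genes and -0.01 over all genes tested. The same 6 genes had CPM that did not overlap between the fractions, a pattern found in 24.1% of tested genes with all IP libraries above and in 24.0% with all IP libraries below Input, or 48.1% in all.

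**Figure D1:**
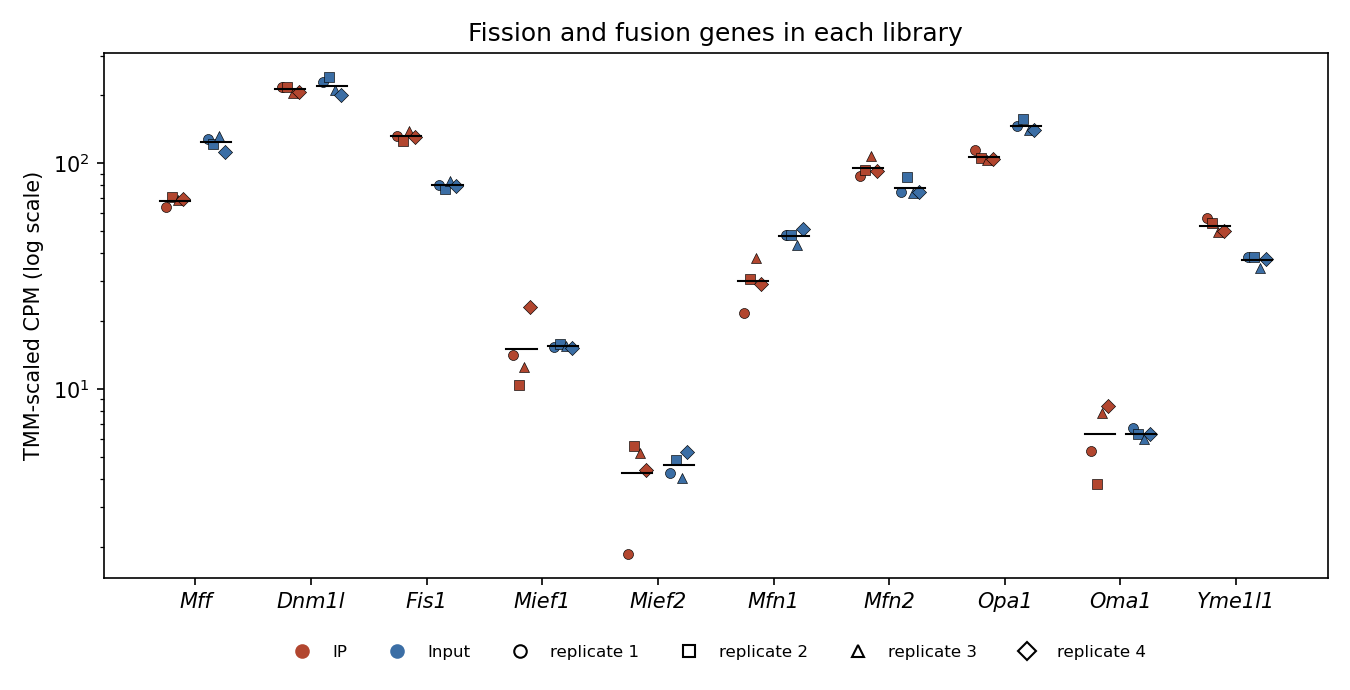
TMM-scaled CPM on a log axis for each gene, with IP libraries (red) left of Input libraries (blue), 1 symbol per replicate and a line at the mean of 4. Mff stands at 64.0 to 71.2 CPM in IP and 112 to 132 CPM in Input without overlap, whereas the 4 IP libraries of Mief1 lie on both sides of its Input libraries.

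The receptor gene Mff (ENSMUSG00000026150) lies on the plus strand of chromosome 1 from 82724890 to 82752394 (GRCm38) and has 10 protein-coding transcripts in GENCODE M21. Replicates 1 to 4 of IP held 64.0, 71.2, 68.6 and 69.7 CPM of Mff, against 128.8, 122.4, 131.9 and 112.2 CPM in Input replicates 1 to 4. Every IP library was below every Input library, and the IP values lay within a narrower band. The log2 fold change was -0.86 (95% interval -1.02 to -0.70, adjusted p = 3.06e-06, edgeR), and 21.7% of tested genes had a lower one. Where the loxP sites lie is not given in the sources used here, and reads from every exon count towards the gene, so this level does not show how much intact Mff RNA the AgRP neurons held. Fewer cells of a type and less RNA per cell cannot be told apart in such libraries.

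Fis1 (ENSMUSG00000019054, chromosome 5, 136953275 to 136966234) encodes a small tail-anchored protein of the outer membrane and moved the other way. Fis1 had 131.9, 125.3, 139.4 and 130.6 CPM in IP, against 79.98, 76.83, 83.32 and 78.98 CPM in Input. The fractions were far apart relative to their spread, with a log2 fold change of 0.72 (95% interval 0.59 to 0.86, adjusted p = 3.81e-06, edgeR). With offsets that remove the trend of each library over GC content and transcript length, the value for Fis1 was 0.21 (adjusted p = 0.0249, edgeR), still a call but far smaller. The longest Fis1 transcript is the shortest of the family at 948 bases, with 54.43% GC.

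Mief1 and Mief2, the remaining receptor genes, were rare and variable. Mief1 (ENSMUSG00000022412, chromosome 15) had 14.15, 10.46, 12.55 and 23.01 CPM in IP, against 15.38, 15.83, 15.46 and 15.18 CPM in Input. Replicate 4 of IP was above all Input libraries and the other IP libraries were below them. Its log2 fold change of -0.04 had an interval of -0.51 to 0.43, which reaches from 0.702 to 1.34 times the Input level (adjusted p = 0.891, edgeR). Mief2 (ENSMUSG00000018599, chromosome 11) had 1.86, 5.56, 5.21 and 4.38 CPM in IP, against 4.22, 4.84, 4.03 and 5.24 CPM in Input. The interval was wider still, from -0.81 to 0.60 around -0.11 (adjusted p = 0.811, edgeR), and the lowest count of the whole family was the 105 counts of Mief2 in IP replicate 1. Neither gene could be shown to differ or to be alike in the fractions.

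Dnm1l (ENSMUSG00000022789, minus strand of chromosome 16, 16312230 to 16358959), the gene of the fission GTPase itself, had the highest CPM of the family. Its level was 218.9, 218.4, 205.8 and 207.1 CPM in IP and 229.1, 241.7, 212.4 and 200.7 CPM in Input. The ranges overlapped, and the narrow interval of -0.21 to 0.10 around a log2 fold change of -0.06 leaves room for a difference between 0.865 and 1.07 times only (adjusted p = 0.544, edgeR, with these scaling factors). The call depended on the scaling. Dnm1l was called lower with upper quartile factors (-0.19, adjusted p = 0.0429) and higher with GC and length offsets (0.20, adjusted p = 0.0465).

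Ratios within a library do not depend on factors that scale a whole library, and 6 were set out for pairs of the family. Offsets that differ by gene do move them. There were 0.292, 0.326, 0.333 and 0.337 Mff counts per Dnm1l count in IP replicates 1 to 4, and 0.562, 0.506, 0.621 and 0.559 in Input. The ratio of Mff to Dnm1l was thus lower in all IP libraries, at 0.573 times its Input value (log2 difference -0.80, 2-sided exact permutation p = 0.0286, or 0.0429 adjusted over the 6 ratios). This p is the smallest that 70 arrangements of the 4 and 4 libraries allow. The gap between the fractions in Mff was wider than the whole range of Dnm1l, so the Mff to Dnm1l ratio had to separate. This p therefore adds nothing to the results of the single genes. Mff per Fis1 count was 0.485, 0.568, 0.492 and 0.534 in IP and 1.61, 1.59, 1.58 and 1.42 in Input, so that Mff exceeded Fis1 in counts in every Input library and was below it in every IP library. Counts are not adjusted for length. Per kb of the longest protein-coding transcript Fis1 was above Mff in Input too, at 84.2 against 59.3 CPM per kb. The log2 difference of the Mff to Fis1 ratio was -1.58, with the same p-values (exact permutation). Mff was lower and Fis1 higher in every IP library, so this ratio had to separate. Its p therefore adds nothing to the results of the single genes. With GC and length offsets the difference was -0.99 (adjusted p = 0.0343, exact permutation), an alternative chosen after seeing the data. Mief1 per Mief2 count ran from 1.88 to 7.59 in IP and from 2.89 to 3.83 in Input, with overlap and no call (difference 0.11, exact permutation p = 0.83, also after adjustment).

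**Figure D2:**
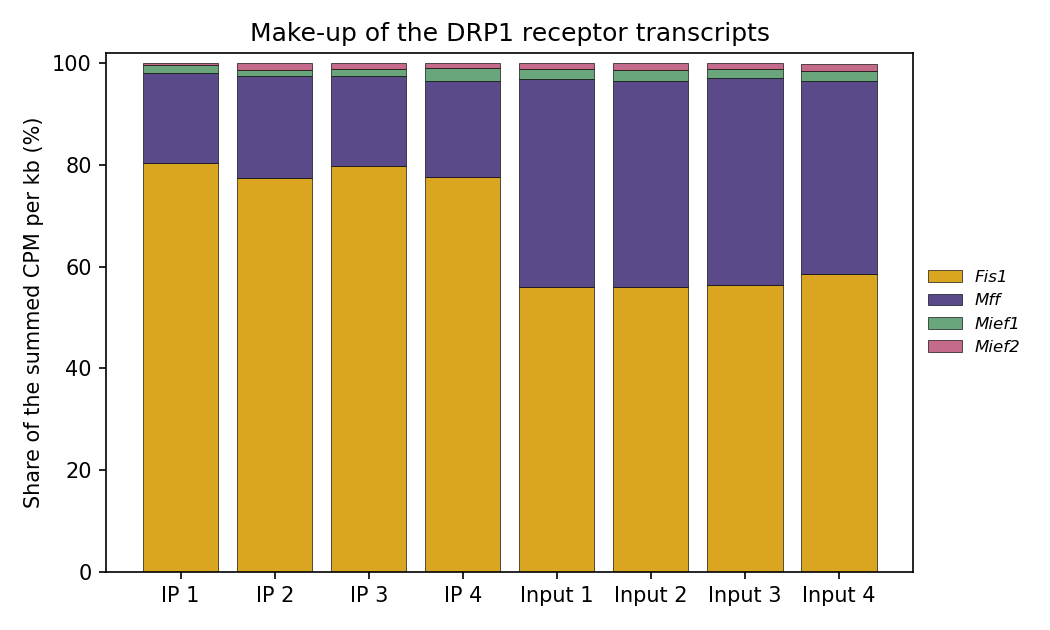
Stacked bars give each receptor gene's share, in percent, of the summed CPM per kb of Fis1, Mff, Mief1 and Mief2 in each library, IP libraries left of Input libraries. Mff takes 17.7% to 20.0% of the receptor signal in IP and 37.8% to 40.9% in Input, and Fis1 takes the largest share in all 8 libraries.

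Expressed per kb of the longest protein-coding transcript, so that genes of different length can be set side by side, Mff made up 18.6% ± 1.07 of the summed level of the DRP1 receptor genes in IP and 40.0% ± 1.43 in Input (SD, n = 4 each). The share of Fis1 was 78.8% ± 1.42 in IP and 56.8% ± 1.26 in Input. Mief1 and Mief2 together were minor in both, at 1.66% ± 0.600 and 0.954% ± 0.375 in IP and 2.03% ± 0.0889 and 1.23% ± 0.199 in Input. These shares describe messenger RNA, not protein, and with the median transcript length Mff took 20.8% ± 1.18 in IP and 43.5% ± 1.46 in Input. They were not computed with GC and length offsets, which brought the log2 difference of the Mff to Fis1 ratio from -1.58 to -0.99.

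The mitofusin genes split. Mfn1 (ENSMUSG00000027668, chromosome 3, 32529465 to 32579239) had 21.78, 30.73, 38.23 and 29.32 CPM in IP, against 48.34, 48.33, 43.42 and 51.11 CPM in Input. All IP libraries were lower, although they differed among themselves more than the Input libraries did, and IP replicate 3 came within a few CPM of Input replicate 3. The log2 fold change of Mfn1 was -0.67 (95% interval -0.99 to -0.35, adjusted p = 0.00307, edgeR). Mfn2 (ENSMUSG00000029020, chromosome 4, 147873599 to 147904704), whose product also tethers mitochondria to the endoplasmic reticulum, had 88.19, 93.78, 108.3 and 92.3 CPM in IP, against 74.53, 87.21, 74.24 and 74.41 CPM in Input. The lowest IP library was just above the highest Input library. Its log2 fold change of 0.30 (interval 0.11 to 0.49, adjusted p = 0.0144, edgeR) did not pass when upper quartile factors were used (0.17, adjusted p = 0.139).

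The ratio of Mfn1 to Mfn2 sums up the split of the mitofusin genes. Mfn1 per Mfn2 count was 0.247, 0.328, 0.353 and 0.318 in IP, and 0.649, 0.554, 0.585 and 0.687 in Input. The ratio was lower in every IP library than in every Input library, at 0.501 times its Input value (log2 difference -1.0, exact permutation p = 0.0286, adjusted 0.0429). Opa1 per Mfn2 count behaved likewise, with 1.30, 1.13, 0.952 and 1.14 in IP and 1.96, 1.81, 1.90 and 1.89 in Input (log2 difference -0.75, exact permutation p = 0.0286, adjusted 0.0429). Every IP library was below Input for Mfn1 and Opa1 and above it for Mfn2, so both ratios had to separate. Their p-values therefore add nothing to the results of the single genes.

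Opa1 (ENSMUSG00000038084, chromosome 16, 29579334 to 29654884), the gene of the inner membrane fusion GTPase, had 114.5, 105.9, 103.0 and 105.0 CPM in IP, against 145.9, 157.4, 140.7 and 140.6 CPM in Input. The fractions were separate and the log2 fold change was -0.45 (95% interval -0.59 to -0.30, adjusted p = 0.000200, edgeR). The genes of its proteases differed from it and from each other. Yme1l1 (ENSMUSG00000026775, chromosome 2, 23156369 to 23199260), which encodes an ATP-dependent protease facing the intermembrane space, had 57.04, 54.57, 49.43 and 49.96 CPM in IP, against 38.57, 38.31, 34.25 and 37.59 CPM in Input. All IP libraries were higher, by 0.50 on the log2 scale (interval 0.32 to 0.69, adjusted p = 0.00049, edgeR). GC and length offsets raised this value to 1.12. Its longest transcript has the lowest GC content of the family, 38.05%.

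Oma1 (ENSMUSG00000035069, chromosome 4, 103313812 to 103371868), the gene of a stress-activated metalloprotease that cleaves OPA1, had 5.29, 3.78, 7.86 and 8.37 CPM in IP, against 6.70, 6.33, 6.01 and 6.31 CPM in Input. Replicates 1 and 2 of IP were below the Input libraries and replicates 3 and 4 above them. The means were 6.327 CPM in IP and 6.334 CPM in Input, with an interval of the log2 fold change from -0.55 to 0.55 (adjusted p = 0.994, edgeR). Oma1 per Yme1l1 count was 0.0929, 0.0695, 0.159 and 0.168 in IP and 0.165 to 0.176 in Input. That difference of -0.57 on the log2 scale did not pass the test (exact permutation p = 0.0571, adjusted 0.0686). The ratio passed when IP replicate 4 was left out (-0.76, adjusted p = 0.0343, exact permutation) or with GC and length offsets, chosen after seeing the data (-1.16, adjusted p = 0.0343, exact permutation). It did not pass when any other library was left out. The adjusted p was then 0.0686 without IP replicate 1, 2 or 3, and 0.206 to 0.24 without 1 Input library (exact permutation).

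**Figure D3:**
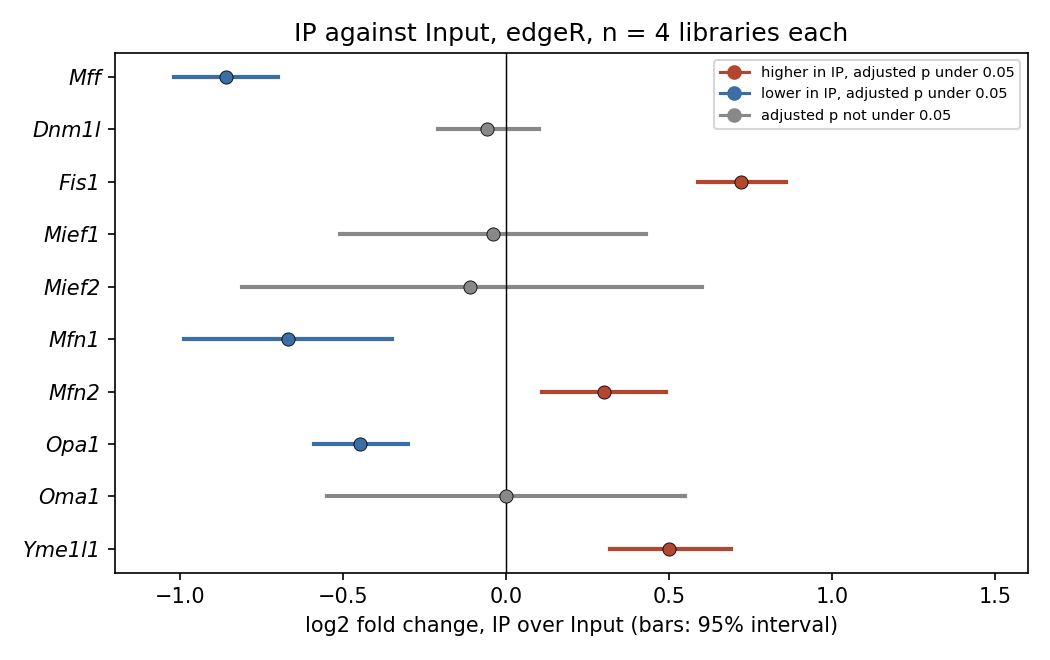
Points give the log2 fold change of IP over Input and bars its 95% interval, from 4 libraries per fraction, with genes higher in IP in red, lower in blue and not called in grey. The intervals of Mief1, Mief2 and Oma1 span zero widely, whereas that of Dnm1l, -0.21 to 0.10, is narrow.

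Ordered by CPM per kb, Fis1 led in IP with 139 ± 6.14, followed by Dnm1l with 53.6 ± 1.78, Mff with 32.8 ± 1.48, Mfn2 with 22.0 ± 2.02 and Opa1 with 17.2 ± 0.814 (SD, n = 4). Below these were Yme1l1 with 11.2 ± 0.781, Mfn1 with 6.58 ± 1.48, Oma1 with 3.30 ± 1.13, Mief1 with 2.92 ± 1.07 and Mief2 with 1.69 ± 0.662 CPM per kb. Of these neighbours in IP, Oma1 and Mief1, and Mief1 and Mief2, had ranges that overlapped. In Input the order was Fis1 (84.2 ± 2.85), Mff (59.3 ± 4.16), Dnm1l (55.7 ± 4.56), Opa1 (23.5 ± 1.27), Mfn2 (17.9 ± 1.48), Mfn1 (10.5 ± 0.702), Yme1l1 (7.90 ± 0.425), Oma1 (3.31 ± 0.148), Mief1 (3.00 ± 0.0533) and Mief2 (1.82 ± 0.221 CPM per kb). There the ranges of Mff and Dnm1l overlapped, and those of the other neighbours did not. Mff and Dnm1l, Mfn2 and Opa1, and Yme1l1 and Mfn1 thus stood in the opposite order in the fractions. The order depends on the length used. With the median length of protein-coding transcripts Opa1 averaged more than Mfn2 in both fractions, at 33.6 against 29.6 CPM per kb in IP, where their ranges overlapped, and Mfn1 was above Yme1l1 in both. Mfn1 was then below Mfn2 in IP (18.7 against 29.6 CPM per kb) and above it in Input (29.8 against 24.0 CPM per kb), and Mief1 averaged more than Oma1 in both fractions.

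Replicates of the less abundant genes spread more in IP than in Input. The coefficient of variation (SD over mean) of Mief1 was 36.7% in IP and 1.77% in Input, where counting error alone would give 3.62% in IP and 3.54% in Input. For Mfn1 it was 22.5% in IP and 6.70% in Input, for Oma1 34.3% in IP and 4.47% in Input, and for Mief2 39.3% in IP and 12.2% in Input. Other genes also varied more in IP. Tested genes within 1.5 times the level of Mief1 had a median of 20.6% in IP and 7.42% in Input, and 91.7% of them in IP varied less than Mief1. The same share was 79.2% for Mfn1, 62.1% for Oma1 and 57.6% for Mief2, so the spread of Oma1 and Mief2 was near that of genes of like level (medians 29.4% and 35.7% in IP). By contrast, Mff at 4.53%, Dnm1l at 3.32%, Fis1 at 4.42% and Opa1 at 4.73% were steady in IP, below the medians of 11.3%, 7.70%, 9.02% and 9.52% of genes of like level. In Input Mff at 7.02% and Dnm1l at 8.18% were above the medians of such genes, 5.63% and 5.75%. Fis1 at 3.39% and Opa1 at 5.40% were below theirs in Input, 5.61% and 5.73%.

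**Figure D4:**
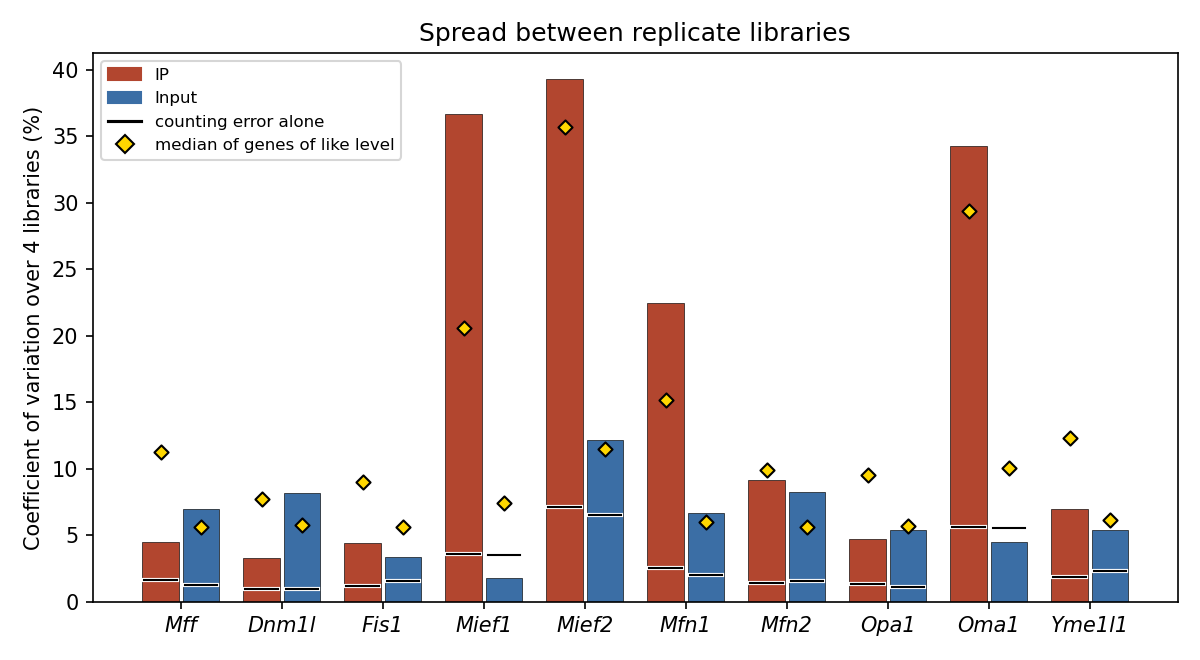
Bars give the coefficient of variation in percent over 4 IP libraries (red) and 4 Input libraries (blue), black lines the counting error alone and diamonds the median of tested genes within 1.5 times the gene's level. Mief1, Mief2, Oma1 and Mfn1 vary by 22.5% to 39.3% in IP, where the medians of genes of like level are 15.2% to 35.7%, while Mff, Dnm1l, Fis1 and Opa1 stay at or under 4.73%.

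Further genes of the same pathways also moved in both directions. Of 9 tested genes of other fission factors 4 were higher in IP and 3 lower, against 24.5% and 20.9% of all genes tested, with a median log2 fold change of 0.03. Mtfr2 was too low to test. The mitochondrial phosphatase gene Pgam5 averaged 25.0 ± 7.30 CPM in IP and 11.0 ± 0.416 CPM in Input (log2 fold change 1.18, adjusted p = 0.000402, edgeR), and Mtfr1l, a fission regulator gene, 56.7 ± 1.70 CPM in IP and 40.7 ± 2.13 CPM in Input (0.48, adjusted p = 0.000327, edgeR). The actin nucleator genes Spire1, with 82.9 ± 12.6 CPM in IP and 160 ± 4.91 CPM in Input, and Inf2, with 3.44 ± 2.10 CPM in IP and 12.9 ± 1.34 CPM in Input, were lower, with log2 fold changes of -0.95 and -1.90 (adjusted p = 1.66e-05 and 0.00203, edgeR; SD, n = 4 each).

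Of 12 genes of other fusion and inner membrane shape factors 4 were called higher and 0 lower, 8 were uncalled, and the median was 0.25. Over all genes tested 24.5% were called higher, near the share in this list, and 20.9% lower. The higher genes of this list included Chchd6, which encodes a subunit of the cristae-organizing MICOS complex (44.4 ± 3.39 CPM in IP, 27.9 ± 1.31 CPM in Input, log2 fold change 0.67, adjusted p = 8.93e-05, edgeR), and the prohibitin gene Phb (82.7 ± 7.32 CPM in IP, 58.9 ± 1.96 CPM in Input, 0.49, adjusted p = 0.000393, edgeR). Chchd6 lost its call with GC and length offsets (0.24, adjusted p = 0.0689, edgeR). Among 7 genes whose products modify fission and fusion proteins, 2 were higher and 0 lower, again beside 24.5% higher and 20.9% lower of all genes tested, with a median of 0.06. They were Park2, which encodes the ubiquitin ligase parkin, known to tag mitofusins (17.3 ± 2.39 CPM in IP, 5.52 ± 0.254 CPM in Input, 1.65, adjusted p = 4.6e-06, edgeR), and Usp30, the gene of a deubiquitinase that opposes parkin (37.3 ± 3.08 CPM in IP, 25.0 ± 0.910 CPM in Input, 0.58, adjusted p = 0.000347, edgeR). The parkin-activating kinase gene Pink1, named after its value was seen, had -0.14 (adjusted p = 0.173, edgeR).

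General mitochondrial genes of the nucleus gave a yardstick for RNA of mitochondrial proteins. In this list of 9 the test called 4 higher and 1 lower and left 4 uncalled, where 24.5% and 20.9% of all genes tested were called so, and the median was 0.17. The import receptor genes Tomm20 (404 ± 24.5 CPM in IP, 278 ± 21.0 CPM in Input) and Tomm22 (103 ± 7.85 CPM in IP, 70.9 ± 3.37 CPM in Input) were both higher by 0.54 (adjusted p = 9.84e-05 and 0.000134, edgeR). The citrate synthase gene Cs was the lower one, with 109 ± 4.82 CPM in IP and 175 ± 16.6 CPM in Input (-0.68, adjusted p = 2.96e-05, edgeR).

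The genes whose profile over the 8 libraries was most like that of Mff were sought among the 8467 tested genes that averaged 10 CPM or more, by the Euclidean distance of log2 CPM centred on each gene's mean. The nearest was AW549877 at a distance of 0.0777, with 50.4 to 55.2 CPM in IP and 87.7 to 99.4 CPM in Input. Then came Map2, a gene of a dendritic microtubule-associated protein (0.183), Dzip1 (0.201), the nesprin gene Syne1 (0.212) and Golgb1, the gene of the Golgi protein giantin (0.213). Map2 stood at 560 to 631 CPM in IP and 1020 to 1170 CPM in Input. Likeness here rests on a similar fall in IP, -0.82 to -0.92 on the log2 scale among these 5 genes and -0.86 for Mff. With GC and length offsets Mff stood at -0.78, Dzip1 at -0.76, Map2 at -0.75, Golgb1 at -0.69, Syne1 at -0.43 and AW549877 at -0.35.

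**Figure D5:**
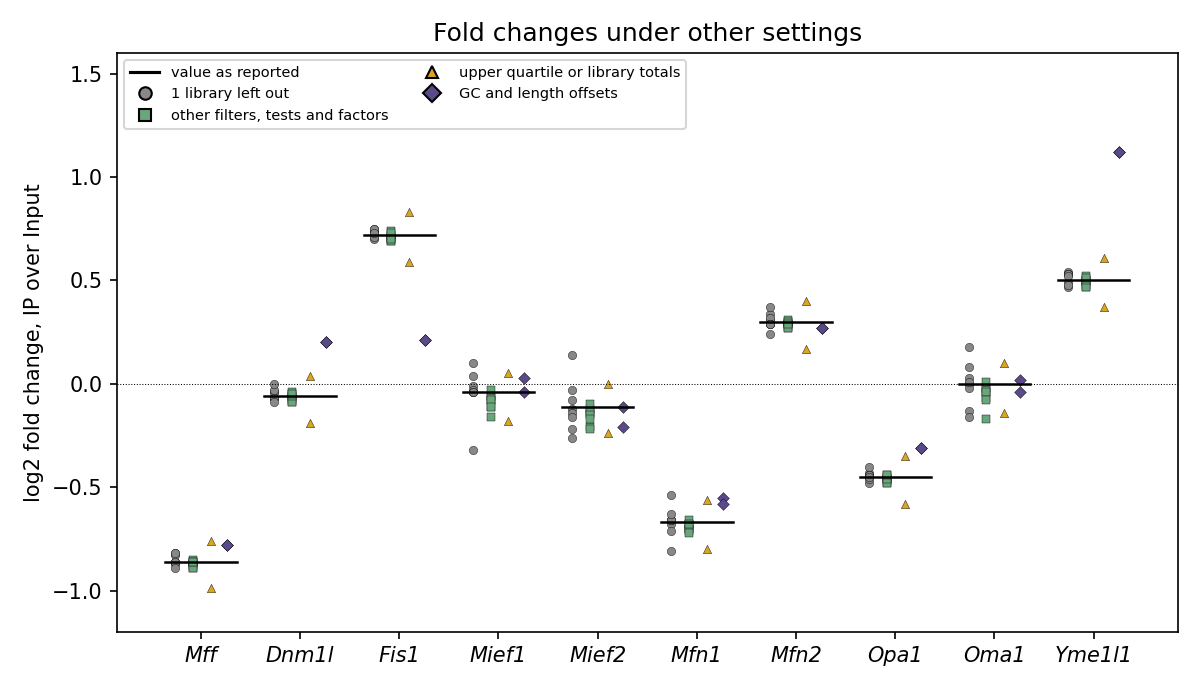
Each point is the log2 fold change of IP over Input under another setting and the line the value as reported, per gene. Mff, Mfn1 and Opa1 stay below zero and Fis1, Mfn2 and Yme1l1 above it in every setting, while GC and length offsets (diamonds) move Fis1 to 0.21, Yme1l1 to 1.12 and Dnm1l to 0.20.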

How the data were processed

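Per the submitters' processing notes, reads were quantified with Salmon 0.14.1 against GRCm38.p6. The authors deposited estimated counts per gene, not normalized. Which annotation release, trimming and strandedness were used is not stated in the labels or the file. Groups and replicate numbers came from the sample titles. After rounding, counts went into edgeR 4.0.16 (R 4.3.3) (filterByExpr with a minimum count of 10, TMM factors, quasi-likelihood test of IP against Input with no covariate), adjusted over all 17000 tested genes. Standard errors are the absolute log2 fold change over the square root of F, and 95% intervals use the fit's degrees of freedom. Ratios added 0.5 to each count. Lengths, GC content and coordinates came from GENCODE M21, in which 98.8% of the table's identifiers were found. Alternatives included DESeq2 1.42.0, limma-voom (limma 3.58.1), other scaling factors and filters, GC and length offsets, a replicate block and leaving out each library. The fit was tested on simulated data. Replicates differed by more than sampling noise (chi-square per degree of freedom 18.5 to 329.1), and all were counted. IP replicate 3 stood apart, with 222.5 to 329.1 against the other IP libraries, which had 47.1 to 60.2 among themselves. Without it 4508 genes were called higher and 4230 lower.

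Salmon divides reads that match several transcripts. Of the 31-base words of each gene's transcripts, between 0% (Fis1, Opa1, Oma1) and 9.51% (Dnm1l) also occur in transcripts of other genes on either strand. Reads of an overlapping gene on the opposite strand, as for Mff and Dnm1l, cannot be told apart with certainty. Gm49521, opposite Dnm1l (9757 overlapping bases), and AC140267.1, on the strand of Mief1 (213 bases), had no entry among the deposited genes. Reads from them, if any, could not be counted separately from Dnm1l and Mief1. The genes and lists were chosen with earlier results of these data known. All 10 genes are named; from each further list the 2 called genes of smallest p per direction; and the 5 genes most like Mff. Totals of 39.9 to 74.6 M (mega) make counting error small, and it covers counting only.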

Additional observations from a re-analysis of the deposited data

Results flagged for a closer look

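In 2 of 32 sets of 4 libraries, 1 library stood far from the rest, measured as its gap to the nearest other library over the range of the set, against Dixon's limit for 4 values. Chance gives about 1 such set in 20. Mfn2 in Input was highest in replicate 2, at 87.21 CPM against 74.24 to 74.53 CPM in the others, with a gap of 0.976 of the range. Without that library the log2 fold change of Mfn2 was 0.37. The ratio of Mff to Fis1 counts in Input was lowest in replicate 4, at 1.42 against 1.58 to 1.61, with a gap of 0.867 of the range, and the IP libraries had 0.485 to 0.568.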

How the results depend on the processing

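The 6 calls (Mff, Mfn1 and Opa1 lower, Fis1, Mfn2 and Yme1l1 higher) kept direction and threshold under every alternative run, except Mfn2 with upper quartile factors (0.17, adjusted p = 0.139). Between 2 and 4 genes were higher and 3 or 4 lower. Upper quartile factors moved the median of all genes by -0.13 and library totals by 0.10. The sign turned for genes that the reported fit did not call. Dnm1l turned with library totals (0.04) and with offsets, alone or with the block (0.20 each). Offsets made it a call in the higher direction (adjusted p = 0.0465 alone, 0.026 with the block, edgeR). Upper quartile factors made it one in the lower direction (-0.19, adjusted p = 0.0429, edgeR). Mief1 turned with library totals (0.05) and offsets (0.03). Oma1 turned with library totals (0.10), offsets (0.02) and without mitochondrially encoded and ribosomal RNA genes (0.01). Leaving out 1 library gave -0.32 to 0.10 for Mief1 (positive without IP replicate 2 or 3), -0.26 to 0.14 for Mief2 (positive without IP replicate 1), -0.16 to 0.18 for Oma1, -0.24 to 0.43 for the ratio of Mief1 to Mief2 (negative without IP replicate 1 or 4) and -0.76 to -0.33 for that of Oma1 to Yme1l1. With GC and length offsets, added after seeing the data, the ratio of Oma1 to Yme1l1 passed the test (-1.16, adjusted p = 0.0343, exact permutation). The cause of these changes was not tested.

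With the replicate block the ratios of Mff to Dnm1l (-0.80), Mff to Fis1 (-1.58), Mfn1 to Mfn2 (-1.0) and Opa1 to Mfn2 (-0.75) had an adjusted p of 0.15, in an exact test of 4 pairs that cannot pass 0.05 at any value. The block changed no call of the 10 genes, with 3878 genes called higher in IP and 3714 lower, against 4171 higher and 3545 lower without it. The labels give no more than a shared number, and deviations of same-numbered IP and Input libraries correlated by 0.048 to 0.084 over genes, each highest with its own number, a hint from the data and not from the design.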

Other observations

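Features annotated within Mff had few counts. Gm28941, a transcript within an intron of Mff on the same strand, had 1, 21, 6 and 0 counts in IP replicates 1 to 4 and 67, 40, 29 and 38 in Input. C430014B12Rik, which overlaps Mff by 280 bases on the opposite strand, had 5 counts over the 4 IP libraries and 37 over the 4 Input libraries. The processed pseudogene Gm13719, which shares 299 of the 31-base words of Dnm1l, had 3 counts in IP and 6 in Input.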
